A study of Homo sapiens with 6 samples.

Results

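The CHD family of chromatin remodelers was examined in HCCLM3 cells with and without overexpression of LINC00862. Its members were taken by gene symbol, CHD1 to CHD9 and CHD1L, and all 10 were found among the 35856 genes of the deposited expression table. HCCLM3 is an established human hepatocellular carcinoma line, and the cells received either a vector carrying LINC00862 or the empty vector. There were 3 libraries in each group, named LINC00862 and NC in the sample labels, and no other allele, agent, dose or time was given. Nothing states whether the libraries came from separate cultures or clones, so every p-value below measures the spread between these libraries, which may be technical. Polyadenylated RNA was sequenced with strand marking, and each gene carries a read count and an FPKM, which scales fragments to the length of the gene's transcripts and to the depth of the library.

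CHD proteins are ATP-driven motors of the SNF2 superfamily that slide, space or evict nucleosomes, and paired chromodomains near their amino terminus bind chromatin. CHD1 and CHD2 act around transcribed genes, CHD3, CHD4 and CHD5 are the alternative motors of the NuRD deacetylase complex, and CHD6 to CHD9 are large proteins with additional BRK domains that are best known from development. CHD1L, also called ALC1, lacks chromodomains, is switched on by poly(ADP-ribose) and lies in a region of chromosome arm 1q that is often gained in liver cancer. The study asked about CHD5 as a partner of LINC00862 at the promoter of RBM47, an RNA-binding protein gene. Its evidence on CHD5 included protein and binding assays, and qRT-PCR after knockdown in HCCLM3 cells. Those assays are not examined here, and the values here place the transcript of CHD5 beside those of its relatives.

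Total counts per library lay between 58241123 and 68229070, and no pair of libraries was alike within sampling noise. LINC00862 itself was higher in the libraries labelled for it, with an edgeR log2 fold change of 3.22 (adjusted p = 0.000583), and RBM47 was higher by 5.40 (adjusted p = 2.8e-07). The level of LINC00862 was low in both groups. It had 6 to 21 counts in NC (0.0214 to 0.0884 FPKM) and 76 to 145 in LINC00862 (0.312 to 0.530 FPKM). The groups stood far apart outside the family too. Of 20741 genes that passed the filter on low counts, 64.2% were called at a false discovery rate of 0.05, with 34.4% called higher and 29.8% called lower in LINC00862. The labels name hepatoma cells, but the summed FPKM of the 9 hepatocyte markers listed was 2.94 to 3.46 in NC and 539 to 618 in LINC00862, nearly all of the latter from FGB, and TTR and APOH were at 0 in every NC library. TTR and APOH were low in LINC00862 as well, at 50 to 93 and 0 to 14 counts. GPC3 and IGF2 were at 0 in every NC library and AFP was at 0 in every LINC00862 library. In the other group these genes were near the floor too. GPC3 had 4 to 7 and IGF2 0 to 12 counts in LINC00862, and AFP had 14 to 30 in NC. Their summed FPKM was 0.066 to 0.135 in NC and 0.030 to 0.054 in LINC00862. The 8 epithelial markers summed to 194 to 287 against 489 to 560, the 8 mesenchymal markers to 917 to 931 against 19.8 to 24.3, and the 5 neuronal markers listed to 15.3 to 19.7 against 3.13 to 3.45. The neuronal sum was nearly all TUBB3, while the median log2 fold change of these 5 markers was 0.88, with 1 called lower and 1 higher. Of 7 tested hepatocyte markers 6 were called higher and SERPINA1 lower, and of 8 epithelial markers 7 were called higher, all but KRT8. Of 8 mesenchymal markers 6 were called lower and COL1A1 higher, beside 29.8% lower and 34.4% higher over all tested genes. The part of this difference between the groups in the results below was not tested. These are bulk libraries, so fewer cells of a type and less RNA per cell cannot be told apart.

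CHD4 and CHD8 were down-regulated in LINC00862, and no CHD gene was called higher. By both edgeR and DESeq2, 0 members were higher at an unadjusted p under 0.05, whereas CHD1L was called higher with upper quartile scaling. CHD4 stood at 55.7% of its NC level and CHD8 at 66.8%, both on CPM, the counts scaled to a common library total after TMM scaling. The other 7 tested members, CHD1, CHD2, CHD3, CHD6, CHD7, CHD9 and CHD1L, did not pass the test, and CHD5 was too low to be tested. Thus 2 of the 9 tested members were called, beside 64.2% of all tested genes, and the 2 called lower stand beside 29.8%. DESeq2 also called 2 members, beside 54% of all tested genes, and so did upper quartile scaling (64.4%) and a replicate block (58.3%). No member passed a test against a 1.5-fold change with edgeR's glmTreat (50.4% of all tested genes), where 1 of 9 had an unadjusted p under 0.05. At a false discovery rate of 0.01 (52.4%) and with limma-trend on unfiltered log2(FPKM + 1) (37.3%), 1 member was called. Leaving out LINC00862 replicate 1, 2 or 3 also left 1 member (55.7%, 56.5% and 56.9%), and leaving out NC replicate 3 gave 3 (61.7%). The median log2 fold change of the 9 members was -0.13, against 0.11 over all tested genes, and with upper quartile scaling it was 0.08 against 0.32. All 9 had FPKM of at least 1 in every library, as did 9137 tested genes. Over these 9137 the median by edgeR with TMM was -0.22, with 63.9% called and 39.4% called lower. The median of the members was thus not under that of genes at such levels.

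**Figure D1:**
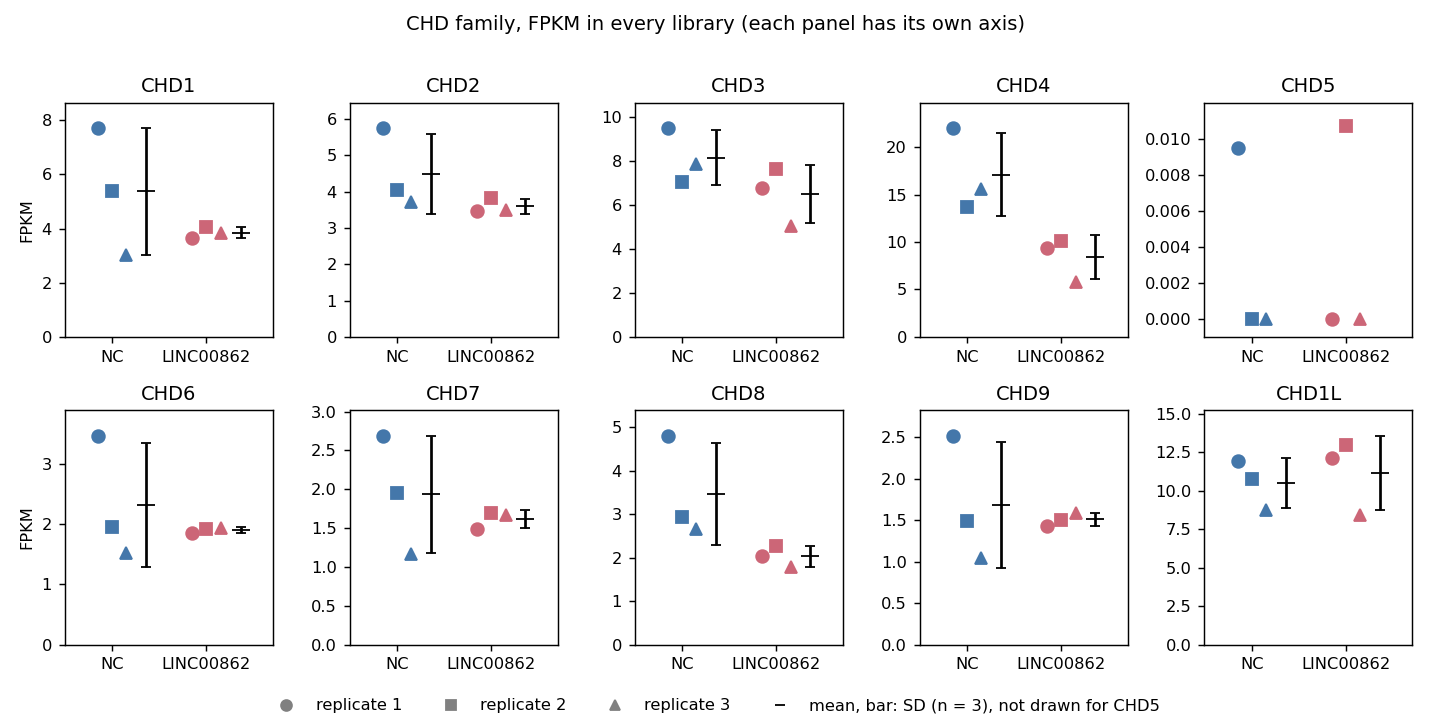
FPKM of the 10 CHD members in each of the 6 libraries (vertical axes, each starting at or just under 0), with NC in blue, LINC00862 in red, symbols for replicates and black bars for mean and SD (n = 3). Only CHD4 and CHD8 have every LINC00862 point under every NC point, and CHD5 is at 0 in 4 libraries.

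CHD4 (ENSG00000111642, chr12:6570082-6614524 on the minus strand, GRCh38) encodes the main NuRD motor of most cells. Its FPKM was 22.0, 13.6 and 15.6 in NC replicates 1, 2 and 3, and 9.34, 10.1 and 5.82 in LINC00862 replicates 1, 2 and 3. All 3 LINC00862 libraries were under the lowest NC library, and LINC00862 replicate 3 was the lowest of all. The means were 17.1 ± 4.37 and 8.43 ± 2.29 FPKM (SD, n = 3 each). The edgeR log2 fold change was -0.84 (standard error 0.21, 95% interval -1.32 to -0.37, adjusted p = 0.00619). The exact two-sided permutation test of FPKM gave p = 0.1, the smallest that 3 libraries against 3 allow. FPKM of the groups did not overlap in 71.1% of all tested genes and was lower without overlap in 36.6%. The call was lost only in the test against a 1.5-fold change (adjusted p = 0.0778 by edgeR's glmTreat) among 16 alternative settings.

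CHD3 (ENSG00000170004, chr17:7884796-7912760 on the plus strand) encodes a NuRD motor that is used in place of CHD4. Its FPKM was 9.51, 7.07 and 7.89 in NC and 6.80, 7.63 and 5.04 in LINC00862. The groups overlapped, since the second LINC00862 library was above the second NC library. The log2 fold change was -0.16 (standard error 0.16, 95% interval -0.52 to 0.20, adjusted p = 0.403 by edgeR). The interval covers a fall and a small rise, so no change was detected beyond the spread of these libraries.

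CHD5 (ENSG00000116254, chr1:6101787-6180321 on the minus strand) encodes the NuRD motor of neurons and testis and is regarded as a tumor suppressor. Its counts were 7, 0 and 0 in NC and 0, 8 and 0 in LINC00862. Every count of the gene thus came from a single library per group, and 4 of the 6 libraries held none. FPKM was 0.00948 in the NC library with counts and 0.0107 in the LINC00862 library with counts. Pooled over libraries, the 7 counts among 177132670 gave 0.0395 CPM (95% exact Poisson interval 0.0159 to 0.0814), and the 8 counts among 185924535 gave 0.0430 (0.0186 to 0.0848). The ratio of LINC00862 to NC was 1.09 with a counting interval of 0.345 to 3.53, so a difference within that interval was not detectable at this depth. A library with no count allows up to 3 counts, or 0.0440 to 0.0515 CPM, and these limits and intervals cover counting error only. The filter on low counts removed CHD5 before the test. With every gene of at least 1 count kept, edgeR gave a log2 fold change of 0.36 (adjusted p = 0.919).

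Within the NuRD motors the level of CHD5 was far under its paralogues in both groups. On the FPKM scale, which is per length, the mean of CHD4 over the 6 libraries was 3794 times that of CHD5, and the mean of CHD3 was 2177 times. Of the genes listed, 21.6% had a lower mean FPKM than CHD5 in NC, 11.2% in LINC00862 and 4.90% over all 6 libraries. These shares depend on how many genes had no count. Genes with a count numbered 23791 to 24850 per NC library and 27464 to 28070 per LINC00862 library. The mean FPKM of CHD5 itself was 0.00316 in NC and 0.00357 in LINC00862. Of the 5 neuronal markers tested, TUBB3 was lower and SNAP25 higher in LINC00862 (log2 fold change 2.80, adjusted p = 0.000135 by edgeR), and CHD5 had 7 and 8 counts in the groups. The annotated gene AL031847 overlaps CHD5 on the same strand and had a mean of 2.0 counts in NC and 0 in LINC00862, so reads there cannot be assigned with certainty.

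CHD5 could in principle take reads from CHD3 or CHD4, whose sequences are alike. Of the 9616 windows of 31 bases in the longest coding transcript of CHD5 (GENCODE 29, ENST00000262450), 21 occurred in another member, 12 of them in CHD4 and 9 in CHD3, so 99.8% were its own. The longest stretches shared were 38 bases with each. They are printed here from the GENCODE transcripts, 5′ to 3′ on the transcript strand. Exact windows do not cover near matches with mismatches. Capitals mark the shared 38 bases and lower case the 20 bases on each side.
CHD5 beside CHD4: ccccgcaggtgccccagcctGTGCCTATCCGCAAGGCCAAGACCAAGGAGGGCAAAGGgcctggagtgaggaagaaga
CHD4 beside CHD5: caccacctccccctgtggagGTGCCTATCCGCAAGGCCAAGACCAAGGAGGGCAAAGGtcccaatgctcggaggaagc
CHD5 beside CHD3: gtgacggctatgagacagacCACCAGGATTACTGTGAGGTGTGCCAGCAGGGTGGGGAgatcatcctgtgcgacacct
CHD3 beside CHD5: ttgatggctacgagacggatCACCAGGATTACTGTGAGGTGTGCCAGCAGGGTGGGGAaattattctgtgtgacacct
The stretch shared with CHD4 lies in coding sequence across the junction of exons 5 and 6 of CHD5 (chr1:6152536-6154696, minus strand, intron included) and of exons 6 and 7 of CHD4 (chr12:6601053-6601325, minus strand, intron included). The stretch shared with CHD3 lies within coding exon 8 of CHD5 (chr1:6149346-6149383, minus strand) and within coding exon 8 of CHD3 (chr17:7894471-7894508, plus strand). Reads were 150 bases long at each end, longer than any of these stretches. Whether reads of CHD3 or CHD4 were placed on CHD5, which had 15 counts in all, was not tested. The longest stretch shared by CHD4 and CHD3 was 37 bases, by CHD1 and CHD2 26 bases, and by CHD6 and CHD9 17 bases.

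CHD1 (ENSG00000153922, chr5:98853985-98929007 on the minus strand) encodes a remodeler that binds trimethylated histone H3 lysine 4 at active genes. Its FPKM was 7.71, 5.37 and 3.02 in NC and 3.66, 4.05 and 3.82 in LINC00862. All 3 LINC00862 values lay inside the NC range, which spanned 2.55-fold. The log2 fold change was -0.28 (standard error 0.26, 95% interval -0.88 to 0.31, adjusted p = 0.371 by edgeR). Single NC libraries decided this value. Without NC replicate 3 it was -0.54 and passed the test (adjusted p = 0.0196 by edgeR), and without NC replicate 1 it was 0.0075 (adjusted p = 0.978).

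CHD2 (ENSG00000173575, chr15:92900189-93022162 on the plus strand), a relative of CHD1 that helps to deposit the histone variant H3.3, had FPKM of 5.76, 4.04 and 3.71 in NC and 3.48, 3.84 and 3.49 in LINC00862. NC replicate 1 was high, and the lowest NC library lay within the range of LINC00862. Its log2 fold change was -0.13 (standard error 0.16, 95% interval -0.49 to 0.22, adjusted p = 0.481 by edgeR).

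CHD8 (ENSG00000100888, chr14:21385194-21456126 on the minus strand) encodes a remodeler that binds beta-catenin and restrains its target genes. Its FPKM was 4.81, 2.94 and 2.65 in NC and 2.03, 2.27 and 1.79 in LINC00862. Every LINC00862 library was under every NC library, and NC replicate 1 was far above the other NC libraries. The means were 3.47 ± 1.17 and 2.03 ± 0.241 FPKM (SD, n = 3 each). The log2 fold change was -0.58 (standard error 0.19, 95% interval -1.02 to -0.14, adjusted p = 0.0257 by edgeR), and the exact permutation p of FPKM was 0.1. The call of CHD8 was less stable than that of CHD4, since it held in 9 of 16 alternative settings where that of CHD4 held in 15. It was lost without LINC00862 replicate 1 (adjusted p = 0.0819), without replicate 2 (adjusted p = 0.0564) and without replicate 3 (adjusted p = 0.0862, all by edgeR), while the log2 fold change stayed between -0.63 and -0.54 in these 3 fits. Without NC replicate 1 the log2 fold change was -0.34 (adjusted p = 0.0285 by edgeR).

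CHD6, CHD7 and CHD9, the other members with BRK domains, were low and did not pass the test. CHD6 (ENSG00000124177, chr20:41402083-41618384 on the minus strand), which has been tied to the response to oxidative stress, had FPKM of 3.47, 1.96 and 1.51 in NC and 1.85, 1.92 and 1.94 in LINC00862. CHD7 (ENSG00000171316), the gene of CHARGE syndrome, had FPKM of 2.68, 1.96 and 1.17 in NC and 1.49, 1.69 and 1.67 in LINC00862. CHD9 (ENSG00000177200, chr16:53055033-53329150 on the plus strand), a coactivator of nuclear receptors, had FPKM of 2.52, 1.49 and 1.05 in NC and 1.43, 1.51 and 1.59 in LINC00862. In all 3 genes the LINC00862 libraries lay inside the NC range, with the first NC library highest and the third lowest. The log2 fold changes were -0.08 for CHD6 (95% interval -0.64 to 0.48, adjusted p = 0.793 by edgeR), -0.06 for CHD7 (-0.62 to 0.49, 0.834) and 0.04 for CHD9 (-0.54 to 0.63, 0.890). The sign of each of these changed under at least 1 alternative, so no direction is given.

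CHD1L (ENSG00000131778, chr1:147242654-147295762 on the plus strand), the remodeler recruited by poly(ADP-ribose) to DNA damage, had FPKM of 11.9, 10.8 and 8.72 in NC and 12.1, 13.0 and 8.43 in LINC00862. The groups overlapped fully, with the third library lowest in each. The log2 fold change was 0.26 (standard error 0.17, 95% interval -0.12 to 0.64, adjusted p = 0.201 by edgeR). With upper quartile scaling it was 0.47 and passed the test (adjusted p = 0.0265 by edgeR), under which the median of all tested genes moved from 0.11 to 0.32. Of the genes that overlap the 9 tested members on either strand, FMO5 on the strand opposite CHD1L was the most counted relative to its member, with 5.07% of the member's counts and a log2 fold change of 2.59. The strand setting of the counting is not given in the sources used here, so a share of CHD1L reads may be misassigned.

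**Figure D2:**
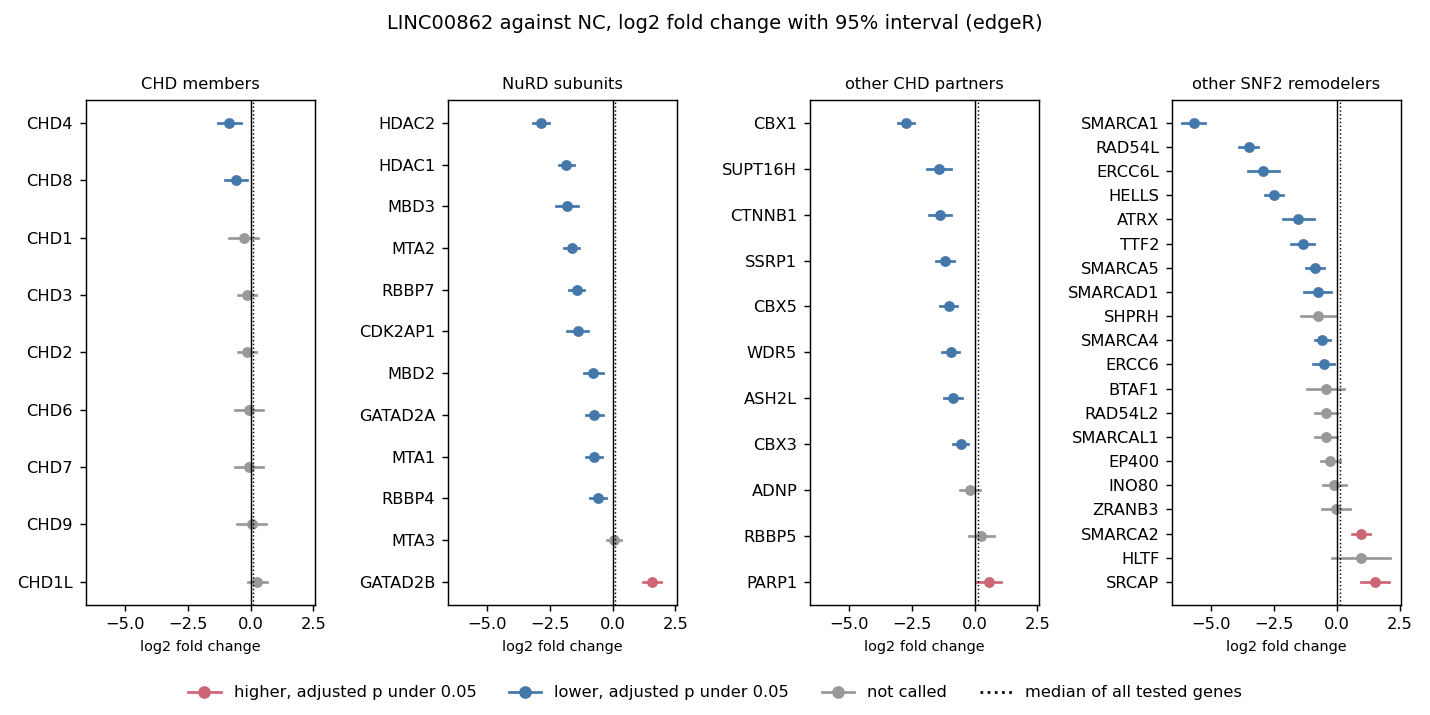
edgeR log2 fold changes of LINC00862 against NC (horizontal axis) with 95% intervals for the 9 tested CHD members, 12 NuRD subunits, 11 other partners and 20 other SNF2 remodelers, blue where lower and red where higher at an adjusted p under 0.05, grey where not called. CHD intervals cluster near the dotted median of all tested genes (0.11), with CHD4 and CHD8 to the left of 0, whereas NuRD subunits reach -2.85.

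Compared with the rest of the transcriptome the CHD family moved little. The median absolute log2 fold change of the tested genes was 1.16, and every member was under it. A larger change than that of CHD4 was found in 60.6% of the tested genes, and than that of CHD8 in 71.6%. For the 7 members not called this share was between 85.8% for CHD1 and 97.7% for CHD9. Standard errors of the members, 0.16 to 0.26, were all under the median of 0.27 over tested genes. These medians and shares of absolute change are over tested genes of every level, and were not taken separately at the level of the members. For direction, a set of 9137 tested genes had FPKM of at least 1 in every library, as every tested member had. Their median log2 fold change was -0.22, with 39.4% called lower and 24.5% called higher.

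The promoters of the 2 called members are printed for orientation, since no file here measures binding or marks at them. They come from RefSeq (GRCh38.p14), run from 250 bases before to 50 bases after a RefSeq start, and are given 5′ to 3′ on the gene's strand. Both starts lie inside the gene as deposited. Capitals mark GGGCGG, the GC box.
CHD4 promoter, chr12:6606402-6606701, minus strand: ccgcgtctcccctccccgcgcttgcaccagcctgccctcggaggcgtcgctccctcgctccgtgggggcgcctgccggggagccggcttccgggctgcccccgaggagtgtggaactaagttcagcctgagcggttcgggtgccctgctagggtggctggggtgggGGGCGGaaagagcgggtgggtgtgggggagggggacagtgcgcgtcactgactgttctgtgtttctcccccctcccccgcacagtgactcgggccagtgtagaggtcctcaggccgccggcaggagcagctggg
CHD8 promoter, chr14:21437226-21437525, minus strand: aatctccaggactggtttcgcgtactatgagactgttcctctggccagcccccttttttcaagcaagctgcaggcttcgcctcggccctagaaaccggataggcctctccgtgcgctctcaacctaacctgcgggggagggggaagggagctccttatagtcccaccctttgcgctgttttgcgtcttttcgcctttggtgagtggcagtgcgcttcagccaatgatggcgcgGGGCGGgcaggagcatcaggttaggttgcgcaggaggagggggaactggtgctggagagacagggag
RefSeq promoters were matched for 7 of the 10 members. The GC box GGGCGG was searched on both strands, as were the letters CCAAT of the CCAAT box and the letters TATAAA of the TATA box, and none of these contains another. The CHD4 window held 1 GC box, 24 CpG dinucleotides and a GC content of 71.7%. The CHD8 window held 1 GC box, 1 CCAAT, 16 CpG dinucleotides and a GC content of 59.7%. Over 35116 promoters of the same length, 45.0% held a GC box, 34.6% a CCAAT box and 11.5% a TATA box, and the median was 14 CpG. CHD1, which was not called, held 4 GC boxes and 44 CpG. A match describes the letters of the window only.

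The make-up of the family differed between the groups. CHD4 was the most abundant member in each NC library and CHD1L in each LINC00862 library, by FPKM. This order rests on the transcript lengths used in FPKM, and other lengths were not tried. As a share of the summed FPKM of the 10 members, CHD4 took 31.3%, 27.7% and 34.5% in NC and 22.1%, 22.0% and 17.3% in LINC00862. CHD1L took 16.9%, 21.9% and 19.2% in NC and 28.7%, 28.2% and 25.1% in LINC00862. CHD4 thus went from a mean of 31.1 ± 3.39% to 20.5 ± 2.74%, and CHD1L from 19.4 ± 2.49% to 27.3 ± 1.96% (SD, n = 3 each). The share of CHD8 was 6.21% in NC and 5.02% in LINC00862, without overlap, and that of CHD2 was 8.18% and 8.99%. The difference in the share of CHD2 rested on LINC00862 replicate 3, without which it was 0.106 percentage points against 0.803 with all libraries. Shares have a fixed sum, so a lower share of CHD4 raises the others. With CHD4 left out of the sum, the difference for CHD2 was -0.627 percentage points with overlap. CHD1L then still had the higher share in LINC00862 (28.1% against 34.5%) and CHD8 the lower (9.04% against 6.32%), without overlap. The shares of CHD1, CHD3, CHD6, CHD7 and CHD9 overlapped between the groups. The summed FPKM was 55.0 ± 13.5 in NC and 40.6 ± 6.36 in LINC00862 (SD, n = 3 each, exact permutation p = 0.2).

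Ratios within a library do not depend on scaling between libraries. Differences between libraries that vary with transcript length, described below, do not cancel in them. The ratio of CHD4 to CHD3 was 2.31, 1.93 and 1.98 in NC and 1.37, 1.33 and 1.15 in LINC00862. The NuRD motor transcripts were therefore less weighted to CHD4 in every LINC00862 library, though CHD4 still exceeded CHD3 in each. The ratio of CHD4 to CHD1L, chosen after its values were seen, was 1.85, 1.26 and 1.79 in NC and 0.770, 0.781 and 0.690 in LINC00862. The ratio of CHD6 to CHD9 was 1.38, 1.32 and 1.44 in NC and 1.29, 1.27 and 1.22 in LINC00862, a small shift without overlap, and that of CHD1 to CHD2 overlapped (exact permutation p = 0.6). That overlap rested on NC replicate 3, without which the difference in this ratio went from -0.0933 to -0.267 and the groups did not overlap. With all libraries, each separated share or ratio reached an exact permutation p of 0.1, the smallest possible, so none could pass 0.05 in this design. After Benjamini-Hochberg adjustment over 20 shares and ratios this p was 0.154. The 20 include the ratios chosen after their values were seen, here and below, which lowers the adjusted value.

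Most members varied more among the NC libraries than among the LINC00862 libraries. By FPKM the coefficient of variation was larger in NC for CHD1, CHD2, CHD6, CHD7, CHD8 and CHD9, 6 of the 9 detected members, with a median over the 9 of 33.8% in NC and 6.90% in LINC00862. NC replicate 1 was the highest NC library for all 9 by FPKM and for 8 of 9 by TMM-scaled CPM, where CHD1L was highest in NC replicate 2. NC replicate 3 was the lowest for 7 of 9, the exceptions being CHD3 and CHD4. CHD3, CHD4, CHD8 and CHD1L were lowest in LINC00862 replicate 3.

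The same order was seen in other genes with long transcripts. The longest coding transcripts of the members were 6673 to 13110 nt, except CHD1L with 2967 nt. Of 9137 tested genes whose FPKM reached 1 in all libraries, 1385 had a longest transcript of at least 6000 nt. In these, the median deviation from the NC mean on the log2(FPKM + 0.1) scale was 0.39 in NC replicate 1, -0.14 in replicate 2 and -0.25 in replicate 3, and NC replicate 1 was highest for 88.6%. In the 7738 genes with shorter transcripts NC replicate 1 had a median deviation of 0.0060 and was highest for 41.4%. The median coefficient of variation in NC was 26.2% for the long and 16.3% for the shorter transcripts. Genes with long transcripts were called in 60.9% of cases and the shorter in 64.5%. RNA quality per library is not given in the labels, and the part of transcript length in the CHD results was not tested.

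**Figure D3:**
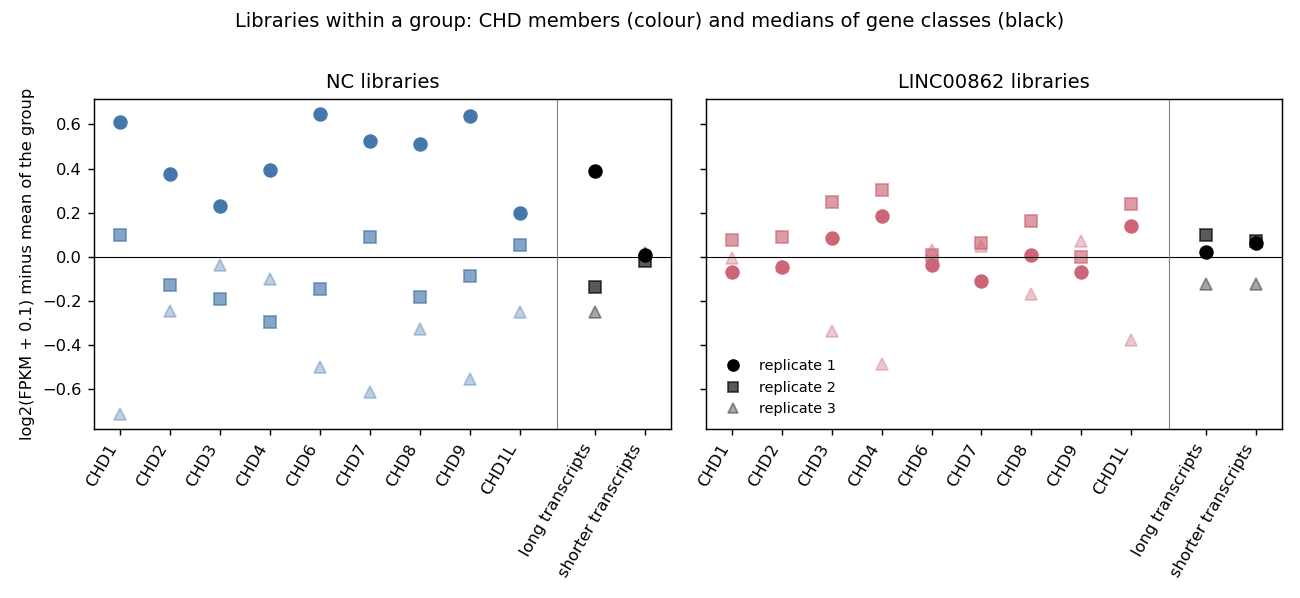
Deviation of each library from the mean of its group on the log2(FPKM + 0.1) scale (vertical axis) for the 9 detected CHD members in colour, and the median deviation of genes with longest transcripts of at least 6000 nt or under it in black. NC replicate 1 is the highest NC point for every member, as it is for the median of the long transcripts (0.39). For the shorter it is not the highest, with 0.0060 against 0.016 in NC replicate 3.

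Most NuRD subunits listed were lower in LINC00862, as CHD4 was. Of 12 NuRD subunits outside the CHD family, 10 were lower, 1 was higher and MTA3 did not pass the test, beside 29.8% lower and 34.4% higher over all tested genes. Their median log2 fold change was -1.09 against 0.11 over all tested genes. HDAC2, a histone deacetylase of the complex, had FPKM of 11.6, 12.1 and 11.1 in NC and 1.46, 1.44 and 1.37 in LINC00862, a log2 fold change of -2.85 (adjusted p = 3.9e-07 by edgeR). HDAC1, its paralogue, went from 44.8, 41.2 and 41.8 to 10.5, 11.5 and 9.50 FPKM (-1.85). Neither deacetylase overlapped between the groups, and CHD4 had a log2 fold change of -0.84 beside these values. MBD3, the methyl-CpG-binding domain subunit, changed by -1.83, MTA2, a scaffold, by -1.64 and RBBP7, a histone chaperone, by -1.44 on the log2 scale. GATAD2B, a zinc finger subunit that bridges MBD proteins and the CHD motor, was the exception, with FPKM of 4.15, 2.91 and 2.97 in NC and 9.65, 8.69 and 7.62 in LINC00862 (log2 fold change 1.55). Its paralogue GATAD2A was lower (-0.74). Ratios between paralogues of the complex, chosen after values were seen, also differed without overlap. GATAD2B to GATAD2A went from a mean of 0.355 to 1.76, HDAC2 to HDAC1 from 0.273 to 0.136, MTA2 to MTA1 from 3.85 to 2.07, MBD2 to MBD3 from 0.780 to 1.57, and RBBP7 to RBBP4 from 1.47 to 0.811.

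Of 11 partners of single CHD proteins outside NuRD, 8 were lower, PARP1 was higher, and ADNP and RBBP5 did not pass the test, beside the same 29.8% lower and 34.4% higher. Their median log2 fold change was -0.96. CBX1, a heterochromatin protein, had FPKM of 85.0, 72.2 and 65.8 in NC and 10.7, 10.1 and 8.94 in LINC00862 (log2 fold change -2.73), and its relative CBX5 changed by -1.04. SUPT16H and SSRP1, the subunits of the histone chaperone FACT, which works with CHD1, changed by -1.41 and -1.19. CTNNB1, the beta-catenin bound by CHD8, had FPKM of 19.4, 14.1 and 13.7 in NC and 5.40, 6.89 and 3.75 in LINC00862 (log2 fold change -1.39), so it was lower beside CHD8. PARP1, which makes the poly(ADP-ribose) that activates CHD1L, had FPKM of 26.4, 17.1 and 21.8 in NC and 32.7, 34.7 and 19.6 in LINC00862. These overlapped, the log2 fold change was 0.58 (adjusted p = 0.0351 by edgeR), and the call was lost in 12 of 16 alternatives. Among these were the fits without NC replicate 2 (adjusted p = 0.134 by edgeR), NC replicate 3 (0.0527), LINC00862 replicate 1 (0.127) and LINC00862 replicate 2 (0.134).

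Among 20 ATPases of the SNF2 superfamily outside the CHD family, 10 were lower, 2 were higher and 8 did not pass the test, so that 12 of 20 were called where 64.2% of all tested genes were. Their median log2 fold change was -0.55. The CHD members had 2 lower and 7 not called of 9. SMARCA1, an ISWI motor, had FPKM of 17.2, 12.0 and 11.8 in NC and 0.212, 0.260 and 0.204 in LINC00862, a log2 fold change of -5.71 (adjusted p = 6.9e-08 by edgeR). RAD54L, which acts in homologous recombination, changed by -3.50, ERCC6L, a motor of mitotic chromosomes, by -2.92, HELLS, which assists DNA methylation, by -2.51 and ATRX, which loads H3.3 at repeats, by -1.53. SRCAP, which exchanges the histone variant H2A.Z, was higher by 1.52, with FPKM of 1.15, 0.743 and 0.677 in NC and 2.92, 2.13 and 1.47 in LINC00862. SMARCA2, a motor of the SWI/SNF complexes, was higher by 0.97, and its paralogue SMARCA4 was lower (log2 fold change -0.57). The ratio of SMARCA2 to SMARCA4, also chosen after values were seen, went from a mean of 0.218 to 0.630 without overlap.

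The members lie apart on 9 chromosomes, and the 5 nearest tested genes on each side of each member were described with no test. Of these 100 neighbours, 69 were called (69.0%), 40 of them higher and 29 lower, near the 64.2%, 34.4% and 29.8% of all tested genes. Around CHD4, 5 of 10 neighbours were lower and none higher, with a median log2 fold change of -0.48. Around CHD8, 4 were lower and 2 higher, with a median of -0.28. Around CHD9, which itself did not pass the test, 9 of 10 neighbours were higher and none lower, with a median of 7.30 over 0.956 Mb. CHD2 had 6 higher neighbours and none lower (median 2.40), while CHD1 and CHD6 had 6 lower neighbours each, beside 3 and 2 higher. CHD9 and CHD2 thus kept log2 fold changes of 0.04 and -0.13 among neighbours that were mostly higher. All 10 members share the gene ontology terms for DNA helicase activity and ATP binding in the deposited table, and CHD3, CHD4 and CHD5 share that for the NuRD complex.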

How the data were processed

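RNA was sequenced from 3 LINC00862 and 3 NC libraries. The authors deposited, for each gene and library, a raw count and an FPKM scaled by transcript length and mapped fragments. The submitters' processing notes list cutadapt 1.9, UMI-tools, HISAT2 2.0.4, StringTie 1.3.4d, DESeq2, edgeR and hg38, without roles. Whether molecular identifiers were collapsed and which strand setting was used are not given in the sources used here. Columns holding the authors' own fold changes and p-values were not used. Groups came from the sample labels. Members, lists and named genes were chosen with earlier results of these data known.

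Counts were tested in R 4.3.3 with edgeR 4.0.16 (filterByExpr, TMM, quasi-likelihood test, Benjamini-Hochberg adjustment over 20741 genes, false discovery rate 0.05). Intervals used the degrees of freedom of that test. Shares, ratios and FPKM were compared by exact two-sided permutation tests. Named were all members, LINC00862, RBM47 and, in each list, up to 5 called genes with the largest rise and 5 with the largest fall. Other genes named for paralogue ratios were chosen after their values were seen. Transcripts came from GENCODE 29, promoters from RefSeq. Scripts were tested on simulated data. Alternatives were DESeq2 1.42.0, upper quartile scaling, library size only, every gene with at least 1 count, a replicate block, a test against a 1.5-fold change, a false discovery rate of 0.01, limma 3.58.1 (limma-trend) on log2(FPKM + 1) and on log2(FPKM + 0.1) with a minimum mean FPKM of 0.1 and on log2(FPKM + 1) without it, and leaving out each library. Total counts of 58241123 to 68229070 give the depth. Python 3.11.15, pandas 2.3.3, scipy 1.17.1 and matplotlib 3.10.9 were used.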

Additional observations from a re-analysis of the deposited data

How the results depend on the processing

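CHD4 kept its direction in all 16 alternatives and its call in 15, with log2 fold changes of -1.02 to -0.63, and CHD8 kept its direction in all 16 and its call in 9 (-0.76 to -0.34). The number of members called, 2, became 0 in the test against a 1.5-fold change (1 at an unadjusted p under 0.05 by edgeR), 1 with limma-trend on log2(FPKM + 1) without a filter, 1 at a false discovery rate of 0.01, and 1 to 3 when a library was left out. In the test against a 1.5-fold change the NuRD subunits called went from 11 to 7, through its larger threshold. Upper quartile scaling called CHD4 lower and CHD1L higher but not CHD8 (adjusted p = 0.109 by edgeR), as it moved the median of all genes from 0.11 to 0.32. Library size only moved it to -0.05, and DESeq2 called 2 members, both lower.

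Signs turned among members that were not called. Upper quartile scaling gave log2 fold changes of 0.083 for CHD2, 0.052 for CHD3, 0.14 for CHD6 and 0.16 for CHD7. CHD9 was -0.14 by library size only, -0.061 by limma-trend on log2(FPKM + 1) with and without the filter, and -0.066 on log2(FPKM + 0.1). Leaving out a library gave -0.54 to 0.0075 for CHD1, -0.22 to 0.023 for CHD2, -0.28 to 0.27 for CHD6, -0.30 to 0.18 for CHD7 and -0.18 to 0.39 for CHD9. The cause of these turned signs was not tested. Without CHD4 in the sum, the share of CHD2 was 11.9% in NC and 11.3% in LINC00862, with overlap, a difference of -0.627 percentage points. Shares of a library have a fixed sum, so the share of each member depends on that of CHD4.

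Same-numbered libraries did not deviate together (correlations -0.11, -0.11 and -0.08), so the labels' numbers were not taken to pair them. With the replicate block, 12098 genes were called, among them 2 members, CHD4 (-0.85) and CHD8 (-0.55, adjusted p = 0.0490 by edgeR). Depth limits CHD5 alone among the members, with 15 counts in all.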
